A study of Homo sapiens with 8 samples.

Results

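The family of miR-148 and miR-152 consists of 3 human microRNA (miRNA) hairpins that yield 3p strands with the same seed, the bases 2 to 8 by which a miRNA pairs with its target mRNAs. Its members were taken by name from the deposited table, which gave 6 mature miRNAs (hsa-miR-148a-3p, hsa-miR-148a-5p, hsa-miR-148b-3p, hsa-miR-148b-5p, hsa-miR-152-3p and hsa-miR-152-5p) of 2588 miRNA names, 1327 of which had a read. They were measured by small RNA sequencing in 4 parental human cancer cell lines with 2 biological replicate libraries each: ES-2 from ovarian cancer, MV-3 from melanoma, Huh-7 from hepatocellular carcinoma and A-549 from lung adenocarcinoma. All lines were harvested after 48 h in culture without treatment, and no line served as control, so that each of the 6 pairs of lines was compared.

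A miRNA hairpin is cut into a duplex of a 5p and a 3p arm, 1 of which is preferentially loaded into Argonaute as the guide strand while the other, the passenger strand, is mostly degraded. In this family the 3p arm is the usual guide. MiR-148a is known as an abundant miRNA of the liver, where the LDL receptor mRNA is among its targets, and the mRNA of the DNA methyltransferase DNMT1 is a known target of the shared seed. The hairpins of miR-148b and miR-152 lie in introns of COPZ1 and COPZ2, paralogous genes for the zeta subunit of the coatomer that coats COPI transport vesicles.

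RefSeq sequences on GRCh38.p14 were found for 5 of the 6 members. The mature 3p arms are shown because their seed, in capitals, defines the family and because so few bases tell the members apart:
miR-148a-3p: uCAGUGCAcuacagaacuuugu
miR-148b-3p: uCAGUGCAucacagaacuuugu
miR-152-3p: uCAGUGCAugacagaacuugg
Counted from the 5′ end, miR-148b-3p differed from miR-148a-3p by C9U and U10C, with the base of miR-148a-3p first. MiR-152-3p differed from miR-148a-3p by C9U, U10G and U20G over 21 compared bases, and from miR-148b-3p by C10G and U20G. The treatment of reads that fit several places was not stated in the sources used here, so that single levels of these near-identical miRNAs carry an uncertainty that the replicate spread does not show.

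The 5p arms do not share 1 seed, as the capitals show:
miR-148b-5p: aAGUUCUGuuauacacucaggc
miR-152-5p: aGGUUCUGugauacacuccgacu

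The hairpins are shown with the mature arms that have a RefSeq entry in capitals, to place the arms whose reads are compared further on. In mir-148a the 3p arm alone is marked:
mir-148a: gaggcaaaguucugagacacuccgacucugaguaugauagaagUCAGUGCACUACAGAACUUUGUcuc
mir-148b: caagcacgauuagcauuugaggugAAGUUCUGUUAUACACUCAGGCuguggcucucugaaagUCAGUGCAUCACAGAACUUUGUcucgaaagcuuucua
mir-152: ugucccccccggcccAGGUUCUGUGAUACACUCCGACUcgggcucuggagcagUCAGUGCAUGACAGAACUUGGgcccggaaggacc
The mir-148a hairpin covers chr7:25949919-25949986 on the minus strand, in an intron of an unnamed lncRNA gene. The mir-148b hairpin lies at chr12:54337216-54337314 on the plus strand, in introns of COPZ1 and of an overlapping lncRNA gene. The mir-152 hairpin lies at chr17:48037161-48037247 on the minus strand, in an intron of COPZ2. No annotated exon of these host genes overlapped any of the 3 hairpins.

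The libraries held 1173902 to 2670030 miRNA reads. Levels are given as normalised CPM, the deposited counts per 1000000 reads scaled by a composition factor (TMM, the trimmed mean of M values), or as library CPM, the reads per 1000000 miRNA reads without that factor. The factor ranged from 0.593 to 1.70 between libraries, and miR-21-5p, the most abundant miRNA, took 27.0% to 65.0% of the reads, with the lowest share in ES-2 and the highest in A-549. Of the line markers, the hepatocyte miRNA miR-122-5p was at 83721 ± 3531 normalised CPM in Huh-7 (SD, n = 2) and at 3.27 to 39.2 elsewhere. The summed epithelial list (5 miRNAs of the miR-200 family) reached 2306 in Huh-7 and 1666 in A-549 against 58.2 in ES-2 and 37.9 in MV-3. MiR-200b-3p carried most of the sum in Huh-7 (1847 and 1859) and in A-549 (1305 and 1403). MiR-141-3p was highest in ES-2, at 4.86 and 5.65 against 1.13 and 1.02 in Huh-7 and 0 and 0.818 in A-549. MiR-200c-3p was at 45.8 and 43.1 in ES-2, near A-549 (56.0 and 104). In the melanoma line MV-3 the melanocyte miRNA miR-211-5p had 0 reads in both libraries and miR-204-5p had 2 in each. The third melanocyte marker, miR-146a-5p, was at 520 and 598 normalised CPM in MV-3, above ES-2 (459 and 447) and A-549 (175 and 187) but below Huh-7 (4323 and 4007), and it carried the sum of that list in every line. Of the 4 blood cell markers, miR-142-3p was at 376 and 337 normalised CPM in the ES-2 libraries and at 0 elsewhere, and miR-144-3p was at 0 everywhere. MiR-451a had 1 and 0 reads in ES-2 and at most 4 in any library, and miR-223-3p had 0 in ES-2 and at most 2. These RNAs were measured in bulk, where a smaller fraction of expressing cells and less RNA per cell cannot be told apart.

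The family was dominated by miR-148a-3p in Huh-7 cells and by miR-148b-3p in the other lines. In the Huh-7 libraries miR-148a-3p held 62362 and 47269 reads. ES-2 gave 11 and 34 reads, MV-3 gave 9 and 26, and A-549 gave 68 and 41. Both Huh-7 libraries thus stood far above the other 6, without overlap. In normalised CPM, hsa-miR-148a-3p reached 17559 and 16143 with Huh-7, 41.9 and 33.5 with A-549, 7.64 and 17.5 with ES-2, and 6.66 and 14.3 with MV-3. MiR-148a-3p was the fifth most abundant miRNA in both Huh-7 libraries, with 2.81% ± 0.0835 of all miRNA reads, and took places 246 to 336 elsewhere. Its mean in Huh-7 was 1343 times that of ES-2, 1610 times that of MV-3 and 447 times that of A-549 in normalised CPM. In library CPM these ratios were 2623, 2299 and 1239, so that their size, though not the direction, depended on the scaling. With a library left out, the ratio to ES-2 in normalised CPM was 965 (ES-2 replicate 1 out) and 2207 (replicate 2 out). That to MV-3 was 1181 and 2529, and that to A-549 503 and 403, without replicate 1 and 2 of that line.

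On the log2(normalised CPM + 1) scale, on which limma was fitted and which understates the change of miRNAs with few reads, Huh-7 exceeded ES-2 in miR-148a-3p by 10.38 (SE 0.45, adjusted p = 3.02e-06). The difference was 10.60 against MV-3 (adjusted p = 3.13e-06) and 8.77 against A-549 (adjusted p = 7.44e-06). Among the 528 miRNAs that passed the filter on low counts, these were the 5th, 2nd and 6th highest differences of the respective comparison. The hepatocyte marker miR-122-5p was, like miR-148a-3p, highest in Huh-7. Among the other lines its mean was highest in MV-3 (32.8 normalised CPM) and lowest in A-549 (5.33), whereas miR-148a-3p was highest in A-549 (37.7). The summed epithelial list was also highest in Huh-7, as was the summed melanocyte list (4200 normalised CPM against 560 with MV-3, 454 with ES-2 and 185 with A-549). That melanocyte sum was carried by miR-146a-5p alone, while miR-211-5p had 1 read in each Huh-7 library. The part of these markers in the difference was not tested.

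Outside Huh-7 the order of miR-148a-3p was not resolved at the threshold of an adjusted p below 0.01. The A-549 libraries lay above those of ES-2 and MV-3 without overlap, but the differences of 1.61 to ES-2 (adjusted p = 0.0230) and 1.83 to MV-3 (adjusted p = 0.0144) did not pass in limma. Both passed in edgeR (adjusted p = 0.00540 and 0.00304) and in DESeq2 (adjusted p = 1.31e-07 and 5.59e-09), and the difference to MV-3 also with RLE size factors (adjusted p = 0.00937). By library size alone they were smaller, at 1.10 (adjusted p = 0.0785) and 0.92 (adjusted p = 0.124). MV-3 and ES-2 overlapped and differed by -0.22 (adjusted p = 0.778). The levels in these 6 libraries were 0.0395% to 0.248% of the Huh-7 mean. For comparison, miR-122-5p had 4 to 57 reads there, or 0.00391% to 0.0469% of its own Huh-7 mean, and the source of reads at this level was not tested.

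The passenger strand miR-148a-5p was likewise a Huh-7 miRNA. Huh-7 gave 591 and 399 reads of hsa-miR-148a-5p, MV-3 gave 0 and 1, and the libraries of ES-2 and A-549 gave 0. Its level in Huh-7 was 151 ± 21.3 normalised CPM (SD, n = 2). Against a floor of 3 reads per library this was at least 83.5-fold higher than in ES-2, 78.3-fold higher than in MV-3 and 70.4-fold higher than in A-549. Limma called it higher in Huh-7 in all 3 pairs, but it passed the filter on low counts through its Huh-7 reads alone. It thus had to be high there, and its calls add nothing to the read counts above or to counts over the members.

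**Figure D1:**
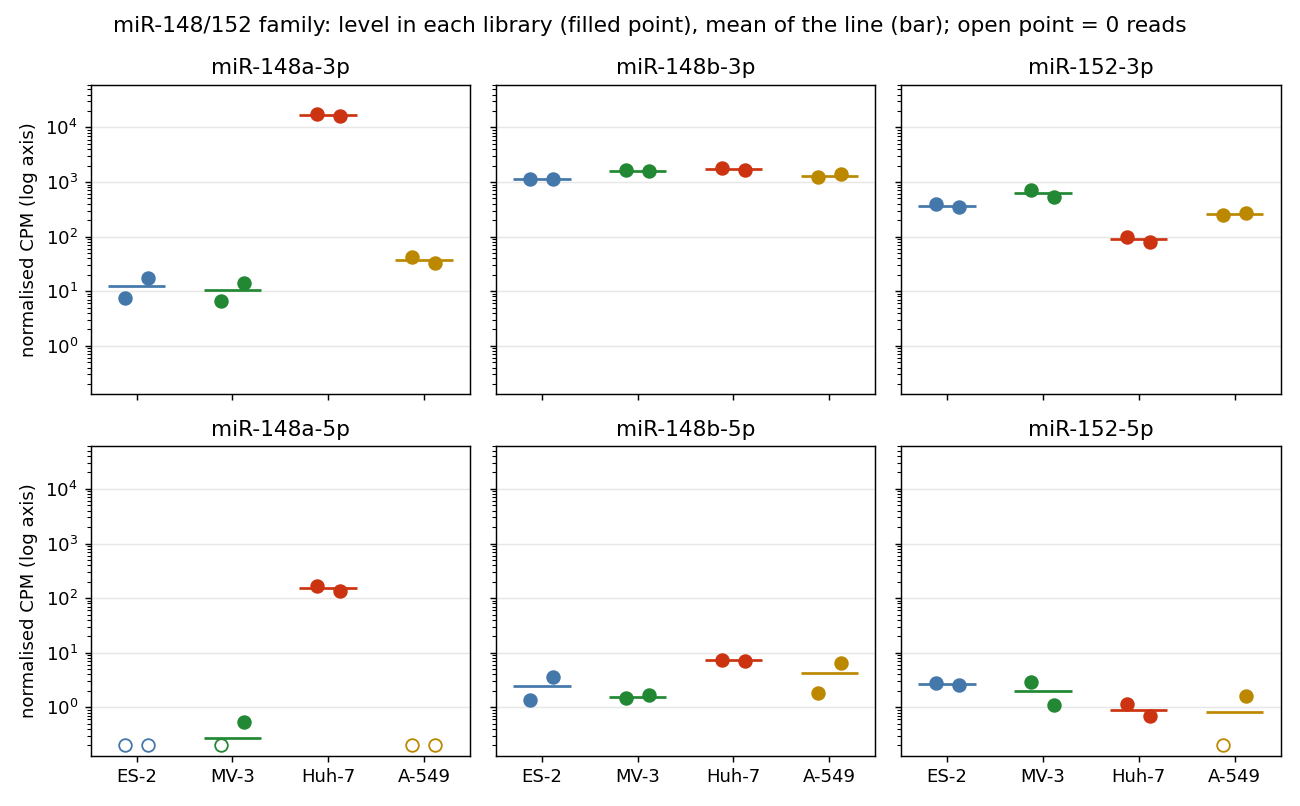
Normalised CPM (log axis) of the 6 members in each of the 8 libraries, by line; filled points are libraries, bars the mean of a line, and open points at the bottom libraries with 0 reads. MiR-148a-3p and miR-148a-5p stand out in both Huh-7 libraries, miR-148b-3p stays between 1124 and 1825 in all libraries, and miR-152-3p is lowest in Huh-7.

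MiR-148b-3p was the most even member. The level of hsa-miR-148b-3p was 1825 and 1686 normalised CPM with Huh-7, 1651 and 1566 with MV-3, 1242 and 1386 with A-549, and 1124 and 1126 with ES-2. The lines were ordered ES-2, A-549, MV-3 and Huh-7 from the lowest, with the libraries of neighbouring lines apart, and the highest mean was 1.56 times the lowest. Without the composition factor the order changed to A-549, ES-2, MV-3 and Huh-7, with 789 ± 47.5, 964 ± 12.6, 1871 ± 41.3 and 2928 ± 77.7 library CPM (SD, n = 2) and a highest over lowest ratio of 3.71.

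For miR-148b-3p, Huh-7 was called above ES-2 at a log2 difference of 0.64 (SE 0.08, adjusted p = 0.000509) and under every alternative run. Huh-7 was also called above A-549 (0.42, adjusted p = 0.00355), but this call was lost with RLE size factors (0.19, adjusted p = 0.0781), in DESeq2 (0.18, adjusted p = 0.136), without a low-count filter (adjusted p = 0.0115), without Huh-7 replicate 1 (adjusted p = 0.0246) and without A-549 replicate 1 (adjusted p = 0.0167). MV-3 was called above ES-2 (0.52, adjusted p = 0.00271), and leaving out any 1 of their 4 libraries ended that call, with adjusted p from 0.0134 to 0.0223. Huh-7 and MV-3, the neighbours at the top, differed by 0.13 (adjusted p = 0.223), and A-549 and MV-3 by -0.29 (adjusted p = 0.0210). By library size alone both were called, at 0.65 (adjusted p = 0.000169) and -1.25 (adjusted p = 1.09e-05). A-549 exceeded ES-2 by 0.22 (adjusted p = 0.0550), a difference called in the same direction by DESeq2 (0.33, adjusted p = 0.00766) and in the opposite one by library size alone (-0.29, adjusted p = 0.00834).

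MiR-152-3p had its lowest level in Huh-7, the line with most miR-148a-3p. The level of hsa-miR-152-3p was 708 and 543 normalised CPM with MV-3, 398 and 343 with ES-2, 251 and 267 with A-549, and 99.96 and 81.3 with Huh-7. The libraries of the 4 lines did not overlap on this scale, in the order Huh-7, A-549, ES-2 and MV-3 from the lowest. In library CPM those of Huh-7 (163 and 139) and A-549 (153 and 159) overlapped. Its mean in Huh-7 was 6.90-fold lower than in MV-3, 4.09-fold lower than in ES-2 and 2.86-fold lower than in A-549.

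Limma called miR-152-3p lower in Huh-7, with log2 differences of -2.77 to MV-3 (SE 0.17, adjusted p = 2.07e-05) and -2.02 to ES-2 (adjusted p = 8.36e-05). The difference to A-549 was -1.51 (adjusted p = 0.000345) under TMM and -0.05 (adjusted p = 0.804) by library size alone, where the means were 151 ± 17.5 library CPM in Huh-7 and 156 ± 4.16 in A-549 (SD, n = 2). A-549 lay below MV-3 by -1.26 (adjusted p = 0.00113), and either A-549 library left out ended this call (adjusted p = 0.0153 without replicate 1 and 0.0125 without replicate 2). MV-3 against ES-2 (0.75, adjusted p = 0.0169) and A-549 against ES-2 (-0.51, adjusted p = 0.0464) did not pass. The first of these passed in DESeq2 (adjusted p = 0.00175) and both passed by library size alone (adjusted p = 0.00169 and 0.00198).

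The scaling shifted all miRNAs together. Replacing TMM by library size alone moved the median log2 difference over the tested miRNAs by 0.87 in Huh-7 minus ES-2, 0.52 in Huh-7 minus MV-3 and 1.33 in Huh-7 minus A-549. In the other pairs it moved by 0.40 in MV-3 minus ES-2, -0.50 in A-549 minus ES-2 and -0.88 in A-549 minus MV-3. The differences of miR-148a-3p between Huh-7 and the rest kept their calls, while some of the smaller differences of miR-148b-3p and miR-152-3p gained or lost a call or turned.

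**Figure D2:**
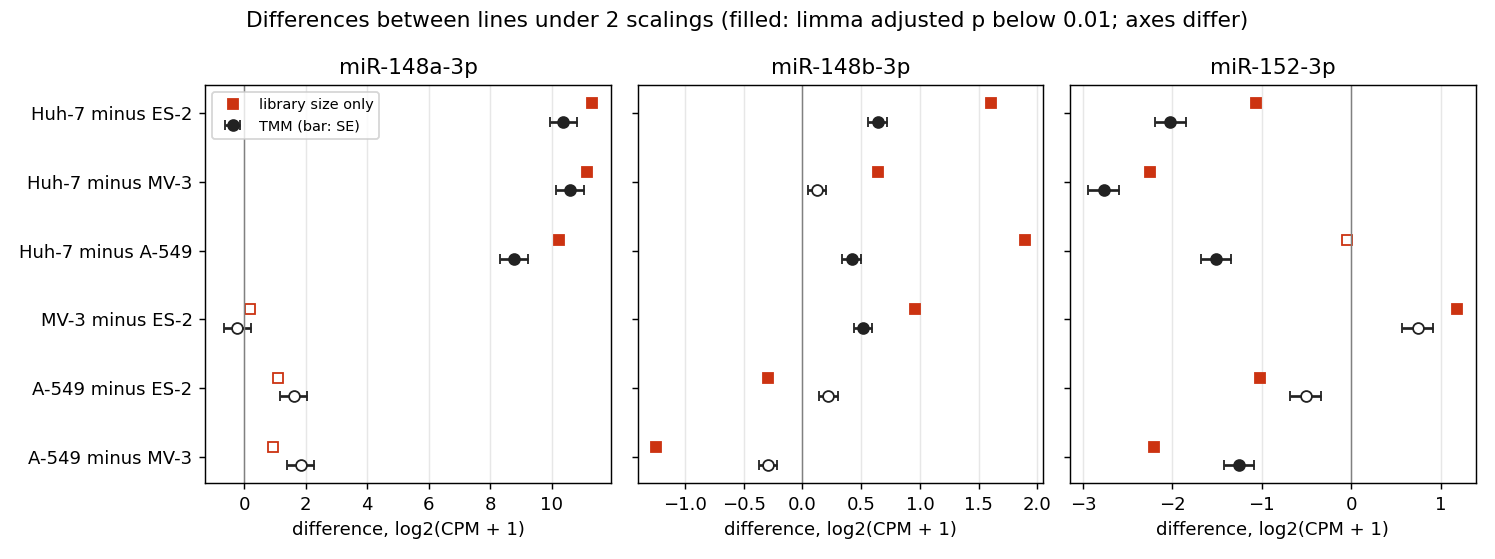
Log2 differences of the 3 3p members in the 6 pairs of lines (first line minus second), on log2(CPM + 1) with TMM (circles, bars are SE) and by library size alone (squares); filled symbols passed at a limma adjusted p below 0.01, and the 3 horizontal axes differ. MiR-148a-3p keeps its calls in the Huh-7 pairs under both scalings, the A-549 minus ES-2 difference of miR-148b-3p turns from 0.22 to -0.29 and that of miR-148a-3p between MV-3 and ES-2 from -0.22 to 0.18, and miR-152-3p in Huh-7 minus A-549 goes from -1.51 to -0.05.

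The other passenger strands were at the edge of detection. For hsa-miR-148b-5p, Huh-7 gave 26 and 21 reads, A-549 gave 3 and 8, ES-2 gave 2 and 7, and MV-3 gave 2 and 3. At 7.25 ± 0.105 normalised CPM in Huh-7 its libraries were above the rest, of which A-549 replicate 2 came nearest with 6.54. The line effect was not called (adjusted p = 0.0968), nor was any pair, the smallest adjusted p being 0.0373 for Huh-7 minus MV-3 (1.69). By library size alone Huh-7 was called above each of the other lines (adjusted p from 0.00765 to 0.00906), for a miRNA that passed the filter on low counts through its Huh-7 reads. For hsa-miR-152-5p, ES-2 gave 4 and 5 reads, MV-3 and Huh-7 each gave 4 and 2, and A-549 gave 0 and 2. It did not pass the filter on low counts. Its levels lay at 0 to 2.96 normalised CPM, next to the floor of 0.845 to 2.45 that 3 reads give in these libraries, and no difference was detectable at this depth.

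Calls were frequent over the whole table, against which those of the members are to be read. Of the 6 members 5 could be tested, and 4 were called over the 4 lines, where limma called 68.2% of the 528 miRNAs. MiR-148a-5p and miR-148b-5p passed the filter through Huh-7 alone, having 0 and 1 libraries above the minimum elsewhere when 2 are required, so that they had to be high there and their calls add nothing to these counts. Of the 3 3p members, each above the minimum in all 8 libraries, 3 were called over the 4 lines. Among them, Huh-7 minus ES-2 had 3 calls (background 49.2%), Huh-7 minus MV-3 had 2 (background 47.0%) and Huh-7 minus A-549 had 3 (background 52.3%). In each of these pairs miR-152-3p was called lower and the other called members were higher. MV-3 minus ES-2 had 1 called member (miR-148b-3p, background 25.8%) and A-549 minus MV-3 had 1 (miR-152-3p, background 39.6%). A-549 minus ES-2 had 0 with limma (background 41.3%), where the 3 members had an unadjusted p below 0.05, edgeR called 1 and DESeq2 called 2. The median log2 difference of the 3p members, which is that of miR-148b-3p, was 0.64, 0.13 and 0.42 in the Huh-7 pairs in the order above, beside 0.34, 0.19 and 0.09 over all tested miRNAs. With 3 members, these counts are a description.

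Since the 3p arms carry the same seed, their reads were summed. The sum was 31837 and 30521 library CPM with Huh-7, 2723 and 2497 with MV-3, 1325 and 1261 with ES-2, and 934 and 1001 with A-549. As a percentage of all miRNA reads this came to 3.12% ± 0.0930 in Huh-7 (SD, n = 2) against 0.261% ± 0.0160 with MV-3, 0.129% ± 0.00454 with ES-2 and 0.0967% ± 0.00477 with A-549. Huh-7 thus held 24.1 times the ES-2 level, 11.9 times that of MV-3 and 32.2 times that of A-549. With TMM these ratios were 12.4, 8.33 and 11.6.

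Without miR-148a-3p the lines were closer. MiR-148b-3p and miR-152-3p together gave 2234 ± 177 normalised CPM with MV-3, 1846 ± 112 with Huh-7, 1573 ± 114 with A-549 and 1496 ± 37.9 with ES-2. MV-3 was then the highest line and the libraries of ES-2 and A-549 overlapped. By library CPM Huh-7 stayed highest, with 3079 ± 95.3 against 2598 ± 166 in MV-3, 1282 ± 51.2 in ES-2 and 945 ± 51.6 in A-549. These sums over members were not tested.

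The composition of the summed seed was read within each library and is therefore free of the scaling. MiR-148a-3p made up 90.1% in each case of the family's 3p reads in the Huh-7 libraries. Its share elsewhere was 2.73% and 1.99% with A-549, 0.499% and 1.17% with ES-2, and 0.282% and 0.672% with MV-3. Both Huh-7 libraries differed from the rest by a wide margin, and the 2 ES-2 libraries overlapped with those of MV-3. MiR-148b-3p held 81.5% ± 0.888 with A-549, 74.6% ± 1.64 with ES-2, 71.8% ± 2.82 with MV-3 and 9.39% ± 0.0308 with Huh-7. MiR-152-3p held 16.1% ± 0.364, 24.5% ± 2.12, 27.7% ± 3.09 and 0.483% ± 0.0418 in the same order (SD, n = 2). ES-2 and MV-3 thus overlapped in all 3 shares, and A-549 lay apart from both with more miR-148b-3p and less miR-152-3p.

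**Figure D3:**
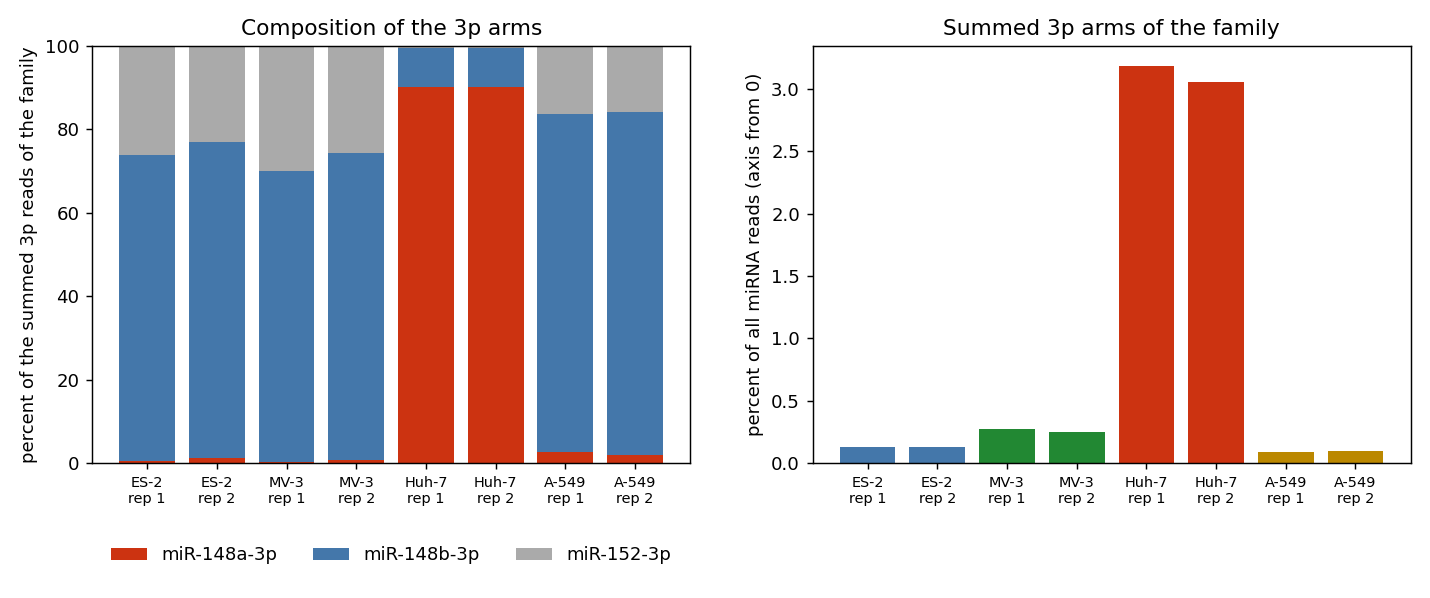
Left, percentage of the summed 3p reads of the family held by each member in the 8 libraries; right, the summed 3p reads as a percentage of all miRNA reads, with the axis from 0. MiR-148a-3p fills 90.1% of the bars of both Huh-7 libraries, whose sums are 3.184% and 3.052% of miRNA reads, while miR-148b-3p fills most of the other bars at sums of 0.0934% to 0.272%.

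Ratios between the members were also read within a library. MiR-148a-3p had 9.62 and 9.58 reads per read of miR-148b-3p in the Huh-7 libraries. The ratio was 0.0290 ± 0.00673 with A-549, 0.0111 ± 0.00616 with ES-2 and 0.00657 ± 0.00359 with MV-3 (SD, n = 2). MiR-148b-3p had 18.3 and 20.7 reads per read of miR-152-3p in Huh-7. This second ratio was 4.94 and 5.18 with A-549, 2.82 and 3.29 with ES-2, and 2.33 and 2.89 with MV-3. Among the lines other than Huh-7, A-549 was the highest in both ratios and ES-2 and MV-3 overlapped in both.

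Arm use was then compared as the percentage of a hairpin's reads on the 5p arm, with exact Clopper-Pearson 95% intervals that cover counting error only. For miR-148a in Huh-7 it was 0.939% (interval 0.865 to 1.02) in replicate 1 and 0.837% (0.757 to 0.923) in replicate 2, or 106 and 118 3p reads per 5p read. In the other lines it could not be measured. With 0 5p reads, the limit that a count of 0 allows, taken as 3 reads of the 3p total, was 4.41% and 7.32% for A-549, 27.3% and 8.82% for ES-2 and 33.3% for MV-3 replicate 1. The exact intervals of these libraries reached somewhat higher, up to 5.28% and 8.60%, 28.5% and 10.3%, and 33.6%. MV-3 replicate 2 had 1 of its 27 reads on the 5p arm. Had these libraries shared the arm ratio of Huh-7, they would have given 0.0813 to 0.614 5p reads each.

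For miR-148b the 5p percentage was 0.399% and 0.424% with Huh-7, 0.149% and 0.470% with A-549, 0.123% and 0.318% with ES-2, and 0.0896% and 0.105% with MV-3. Both Huh-7 libraries were above those of MV-3 and ES-2, and A-549 spanned from below to above Huh-7. The ratio of 3p to 5p reads was 249 and 235 in Huh-7 and ranged from 212 to 1116 in the other libraries, on 2 to 8 5p reads each. For miR-152 the 5p percentage was 1.11% and 0.833% with Huh-7, 0.692% and 0.744% with ES-2, 0.416% and 0.202% with MV-3, and 0 and 0.608% with A-549, where 0 of 408 reads allowed up to 0.735% by the limit of 3 reads and 0.900% by the exact interval. With at most 5 reads of miR-152-5p per library, all these intervals overlapped.

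Of all 139 hairpins with both arms past the low-count filter, limma called a line effect on the log2 ratio of 3p to 5p for 11, or 7.91%. The hairpin of miR-148a was 1 of them (adjusted p = 0.00738) and that of miR-148b was not (adjusted p = 0.201), while that of miR-152 could not be tested. The miR-148a call was set by the pseudocount of 1 normalised CPM that replaced its missing 5p reads: with 0.1 the adjusted p was 0.114 and with 0.5 reads it was 0.0822. The log2 ratio in Huh-7 minus ES-2 was 3.14 (adjusted p = 0.00604) with the first and -0.061 (adjusted p = 0.980) with 0.1. Leaving out either library of MV-3, Huh-7 or A-549 also ended the 4-line call, with adjusted p from 0.0266 to 0.0453.

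**Figure D4:**
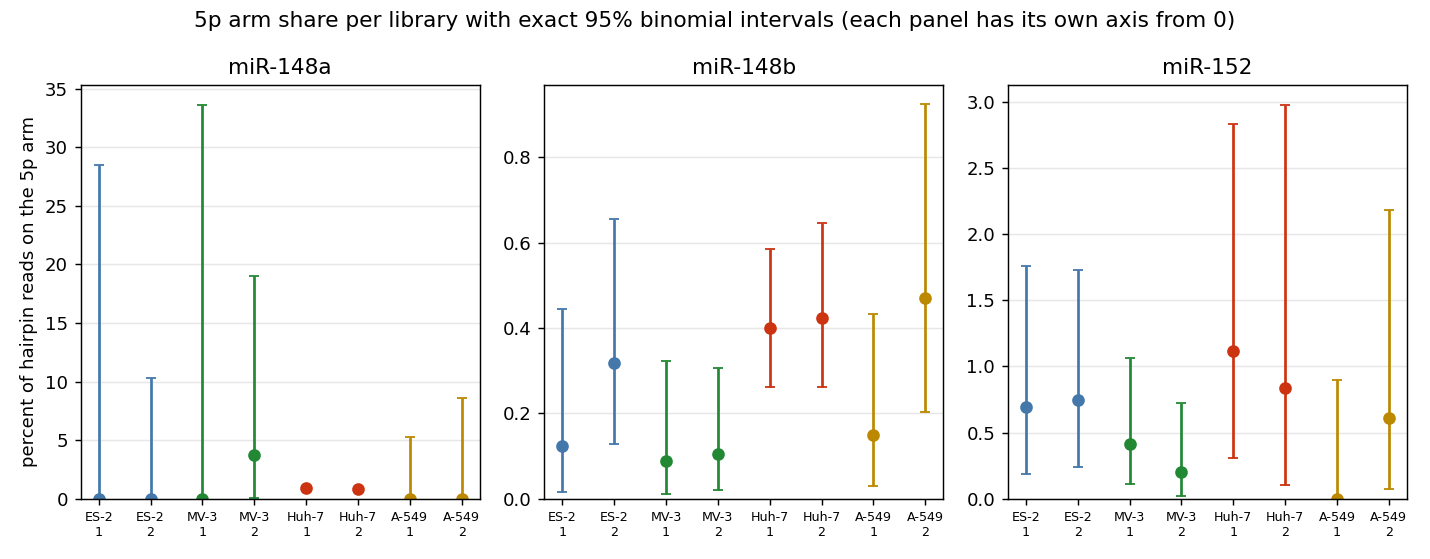
Percentage of the reads of each hairpin on its 5p arm in the 8 libraries, with exact 95% binomial intervals; each panel has its own axis from 0. The intervals of miR-148a are narrow in Huh-7 alone (0.865 to 1.02 and 0.757 to 0.923), and those of miR-148b and of miR-152 overlap between all 8 libraries.

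Such one-sided arm use was common in these lines. Among hairpins with at least 100 normalised CPM, which numbered 133 (A-549), 112 (Huh-7), 102 (MV-3) and 98 (ES-2), a single arm held at least 99% of the reads in 44.4%, 42.9%, 36.3% and 40.8% of them in that order. The 3p arm did so in 15.04%, 14.3%, 12.7% and 11.2%. The median share of the minor arm was 1.93%, 2.20%, 2.03% and 2.13%. All 3 guide strands of the family begin with U while both printed 5p arms begin with A, and the major arm began with U in 59.8%, 61.6%, 62.0% and 60.0% of the hairpins with a sequence.

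The surroundings of the hairpins differ between the chromosomes, but each has miRNAs of a HOX gene cluster, known for setting body-axis identity, within 1.5 Mb. Within that distance RefSeq places hairpins for 17 miRNA names, of which 7 had a read, 5 could be tested and 5 were called over the 4 lines, where the share over all tested miRNAs was 68.2%. At least 1000 normalised CPM in a line were reached by 2 of them. MiR-10a-5p, 543 kb from mir-152, was at 12056 ± 279 with ES-2, 5774 ± 376 with A-549, 2073 ± 74.9 with MV-3 and 6.57 ± 1.33 with Huh-7 (SD, n = 2). Its lowest line was that of miR-152-3p, but its highest line was not. MiR-196a-5p, from 1 hairpin at 345 kb from mir-148b and another at 595 kb from mir-152, was at 276 ± 48.2, 627 ± 27.9, 840 ± 120 and 5168 ± 230 in the same order. Its 2 table entries were summed, since the mature sequence is shared by both hairpins.

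By pair of lines, the calls among the 5 tested neighbours were 2 higher and 2 lower in Huh-7 minus ES-2, where 27.7% of all 528 tested miRNAs were higher and 21.6% lower. They were 3 and 2 in Huh-7 minus MV-3 (26.9% and 20.1% of all), and 2 and 2 in Huh-7 minus A-549 (23.7% and 28.6% of all). In MV-3 minus ES-2 they were 1 and 4 (11.6% and 14.2% of all), in A-549 minus ES-2 1 and 3 (23.7% and 17.6% of all), and in A-549 minus MV-3 2 and 1 (24.1% and 15.5% of all). The list thus held calls in both directions in every pair.

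Related seeds were sought among miRNA names with a RefSeq sequence, which miR-148a-5p for example lacked, so that the list may be incomplete. AGUGCA within the bases 2 to 8, or the same seed as a member, was found in 11 further miRNA names, of which 6 had a read and 3 could be tested, namely miR-454-3p, miR-301a-3p and miR-130b-3p of the miR-130/301/454 family. MiR-454-3p was called over the 4 lines (adjusted p = 0.00388) at 1381 ± 116 normalised CPM with MV-3, 1364 ± 62.6 with ES-2, 1179 ± 2.35 with Huh-7 and 869 ± 116 with A-549. It was the only 1 of the 3 called over the 4 lines, where 68.2% of all tested miRNAs were called. ES-2 and MV-3 were each called above A-549 in this miRNA (shares over all 41.3% and 39.6%). MiR-130b-3p, named after its values were seen, was higher in Huh-7 than in A-549 (1.45, adjusted p = 0.00792, share over all 52.3%). It varied between the Huh-7 libraries (138 ± 47.6 normalised CPM), and its effect over the 4 lines was not called (adjusted p = 0.0245).

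The 3p members had different profiles across the 8 libraries, which form 4 lines and are thus not independent points. Pearson's r of log2(normalised CPM + 1) was -0.94 between miR-148a-3p and miR-152-3p, 0.63 between miR-148a-3p and miR-148b-3p, and -0.37 between miR-148b-3p and miR-152-3p. The miRNAs most like miR-148a-3p were miR-1266-5p (r = 0.99), miR-483-3p (0.99) and miR-618 (0.98). Of these miR-483-3p, from an intron of IGF2, reached 6335 normalised CPM in Huh-7 and 3.85 to 11.2 as mean of the other lines. MiR-618 (116 in Huh-7) and miR-1266-5p (17.7 in Huh-7) had means of 0 to 1.02 elsewhere. For these miRNAs, miR-483-3p included, r mainly reflects Huh-7. Those most like miR-148b-3p were miR-210-3p (r = 0.94), miR-28-5p (0.93) and miR-548h-5p (0.93). Of these miR-210-3p and miR-548h-5p were at low levels, with line means of 0.514 to 22.4 and 0 to 22.5 normalised CPM. Those most like miR-152-3p were miR-218-5p (r = 0.98), miR-92b-3p (0.97) and miR-125b-1-3p (0.95). MiR-218-5p was, like miR-152-3p, highest in MV-3 at 1583 and lowest in Huh-7 at 69.2 normalised CPM. These coefficients are given as a description.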

How the data were processed

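Small RNA libraries were generated by the authors from 50 ng total RNA with an adapter-ligation kit and sequenced on an Illumina HiSeq platform. Per the study's methods, reads were clipped with Cutadapt (v 1.14), aligned to GRCh38 with Bowtie2 (v 2.3.2) and summarised over miRBase (v 21) with featureCounts (v 1.5.3). Handling of multi-mapping reads, of strand and of PCR copies is not given in the sources used here, so that intervals and floors hold for counting error alone. What the authors deposited is a normalised signal per miRNA entry, that is CPM scaled by TMM factors of edgeR (v 3.18.1). Dividing the deposited values of a library by its smallest positive value gave reads, and 100% of the values came out whole within 0.001, and these recovered reads gave the totals of 1173902 to 2670030 per library.

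Libraries were assigned to lines and replicates by their labels. The 2813 entries were summed to 2588 names. Values were tested with limma (v 3.58.1) on log2(normalised CPM + 1) with a trended prior, 1 term per line and 4 residual degrees of freedom, for 528 miRNAs past filterByExpr on the recovered reads. Benjamini-Hochberg adjustment was run over all tested miRNAs of a comparison with calls below 0.01. Arm ratios were fitted over 139 hairpins. P values measure the spread between replicate libraries. Alternatives were RLE or library size scaling, other filters and pseudocounts, edgeR (v 4.0.16) quasi-likelihood and DESeq2 (v 1.42.0) on recovered reads, a replicate block and each library left out. The fitting was tested on simulated data. Members, lists and markers were chosen with earlier results of these data known. Named miRNAs were the 6 members, neighbours within 1.5 Mb, related seeds (values from 1000 normalised CPM), the 3 closest in Pearson's r to each 3p member, and markers.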

Additional observations from a re-analysis of the deposited data

How the results depend on the processing

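Over the 4 lines the 4 called members, of which miR-148a-5p passed the filter through Huh-7 alone, kept their call under every alternative run. Of the member values by pair of lines under all alternatives, 466 of 504 kept direction and side of the threshold, 12 lost the call, 20 gained it and 6 turned. Part of them could not turn, since leaving out a library of a line outside the pair does not change the difference. Nor do another filter, the replicate block or the threshold of 0.05. MiR-148a-5p in A-549 minus ES-2 was 0 in every run and had no direction to keep. The count includes miR-148a-5p and miR-148b-5p, which passed the filter through Huh-7. The turned values, none called with TMM in limma, were miR-148a-3p in MV-3 minus ES-2 (0.18 by library size alone, 0.32 without ES-2 replicate 2, 0.27 without MV-3 replicate 1, range -0.77 to 0.32 with a library left out), miR-148b-3p in A-549 minus ES-2 (-0.29 by library size alone), and miR-148b-5p in MV-3 minus ES-2 (0.10 without ES-2 replicate 2, range -0.84 to 0.10) and A-549 minus ES-2 (-0.22 without A-549 replicate 2, range -0.22 to 1.19). The summed 3p arms moved from library CPM to 1508, 2245, 18698 and 1611 with TMM and to 1523, 2220, 17262 and 1747 with RLE (ES-2, MV-3, Huh-7, A-549), by construction of the scaling. All miRNAs called over the 4 lines numbered 310 with a pseudocount of 0.1 to 418 by library size alone, 431 at an adjusted p below 0.05, and 282 to 348 with a library left out.

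Arm ratios were the least stable. Against 11 hairpins over the 4 lines and 39 calls summed over the pairs, there were 2 and 8 with a pseudocount of 0.1, 2 and 9 with 0.5 reads, 6 and 10 with at least 10 reads in both arms (43 hairpins tested), 37 and 109 at an adjusted p below 0.05, and 1 to 12 and 12 to 25 with a library left out. The lowest counts were 1 and 12 without Huh-7 replicate 1, and 12 summed over the pairs also without A-549 replicate 2. The arm ratio of miR-148a turned with the pseudocount of 0.1 in Huh-7 minus ES-2 (-0.061) and Huh-7 minus A-549 (-1.75), and without ES-2 replicate 2 in MV-3 minus ES-2 (0.0092, range -1.09 to 0.0092). That of miR-148b turned in Huh-7 minus A-549 without A-549 replicate 1 (0.21, range -1.04 to 0.21), and in A-549 minus ES-2 without ES-2 replicate 1 (0.21) and without A-549 replicate 2 (0.36, range -0.89 to 0.36). The cause of these changes was not tested.

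The deviations of libraries with equal replicate numbers correlated at -0.05 to 0.23 over the 6 pairs of lines, highest between ES-2 and Huh-7. With 2 libraries per line this cannot settle whether the libraries were paired. With the replicate block 361 miRNAs were called over the 4 lines, against 360 without. The block left 20 of the 39 arm calls, and the miR-148a arm ratio was then at an adjusted p of 0.0138 over the 4 lines and 0.0112 in Huh-7 minus ES-2. It changed no call of a member. With 2 libraries per line, and fewer than 10 reads of miR-148b-5p and miR-152-5p in most, depth limits the passenger strands.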
